A study of Rattus norvegicus with 6 samples.

Results

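This report covers 33 genes of the mitochondrial respiratory chain in rats given phenolphthalein, measured in the kidney's outer layer, the renal cortex. They are the nuclear genes of succinate dehydrogenase (complex II), of the cytochrome bc1 complex (complex III) and of cytochrome c oxidase (complex IV), with assembly factors of complex IV. They were taken by name from a fixed list, and each was measured by its brightest probe. Of the 33 genes, 30 were matched to a probe through its RefSeq accession, among 12269 named genes tested in all. No probe was matched to Cyc1, Cox10 or Sco2, so these genes have no value here. All 30 measured genes were well above background on all 6 arrays, so none was kept through the group in which it was high.

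The study set 3 male Sprague-Dawley rats of the Crl:CD(SD) stock given corn oil, the vehicle, against 3 given phenolphthalein at 1000 mg/kg/day. Phenolphthalein is a dye once sold as a laxative. Dosing lasted 4 weeks in both groups, in animals 5 weeks old at purchase. No genetic change is named for either group, and the design text calls the replicates biological. RNA of 1 rat was labelled with Cy3 and hybridised to 1 Agilent array. A level is the log2 of the processed spot intensity relative to the array's 75th percentile, so 0 is that percentile. Levels compare arrays for 1 probe and not genes with each other, because probes bind with different strength.

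Complex II oxidises succinate and passes the electrons to ubiquinone. Complex III moves them from ubiquinol to cytochrome c, and complex IV hands them to oxygen. Complexes III and IV pump protons, complex II does not, and ATP synthase uses the proton gradient to make ATP. The catalytic core of complex IV is encoded in mitochondrial DNA and carries heme A and copper, which dedicated assembly factors insert. Proximal tubule cells of the renal cortex are rich in mitochondria and draw on this chain for sodium-driven reabsorption.

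The tissue was checked against markers of its cell types. All 13 proximal tubule markers were above background, with a summed linear level of 3121 to 3200 on the vehicle arrays and 2977 to 3145 on the phenolphthalein arrays. Of these markers of the mitochondria-rich tubule, 9 of 13 were lower by value with phenolphthalein, with a median difference of -0.10 log2. By value 54.1% of all items and 66.8% of items above a level of 5 were lower. Markers of the thick ascending limb and distal tubule were lower in 2 of 5, with a median of 0.02. Those of the collecting duct were lower in 4 of 8, of the glomerulus in 3 of 6 and of the endothelium in 2 of 7. In the first 2 of these sets, single markers lay well below their set. Slc12a3 of the distal tubule differed by -0.39 log2 (SE 0.05, limma adjusted p = 0.358). Aqp2 of the collecting duct differed by -0.58 (SE 0.20, limma adjusted p = 0.513). The groups did not overlap for either. Leukocyte markers were lower by value with phenolphthalein in 13 of 14. Their summed level was 161 to 205 in vehicle and 132 to 139 in phenolphthalein, without overlap. Of these markers, 0 passed the limma test described below (smallest adjusted p = 0.433). The 11 measured liver markers summed to 15.6 to 30.2 in vehicle and to 20.7 to 39.0 in phenolphthalein. Of these, 10 were higher by value, and Cps1 was not above background. Of the 9 markers of fat and striated muscle with a probe, Myh1 and Myh2 were not above background, and the other 7 summed to 1.84 to 2.12 in vehicle and 1.43 to 2.01 in phenolphthalein. The part of these cell types in the results below was not tested. All vehicle arrays lay on 1 of 3 slides, phenolphthalein replicate 1 on another and phenolphthalein replicates 2 and 3 on the last. The 3 scan days split the arrays in the same way. Slide, scan day and group therefore cannot be told apart.

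No gene of complexes II, III and IV passed the test for a difference between phenolphthalein and vehicle (limma, two-sided, Benjamini-Hochberg over 34417 tested items, threshold 0.05). The smallest adjusted p among the 30 genes was 0.557, and 0 were called higher and 0 lower. The same fit called 0% of all items in either direction. At an unadjusted p under 0.05, 2 of the 30 were lower, Cox20 and Uqcrb, where 4.92% of all items were, and 0 were higher, where 3.94% of all items were. A share of 2 in 30 lies near that background. The count of lower genes was 0 without vehicle replicate 1, vehicle replicate 2 or phenolphthalein replicate 1. No share over all items at the unadjusted threshold is given for these fits. At the adjusted threshold, 1 of all items was called lower without vehicle replicate 1 and 1 higher without phenolphthalein replicate 3. Without phenolphthalein replicate 2, 1 was called each way. In whole tissue, fewer cells of a type and less RNA per cell cannot be told apart.

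The differences were small and mostly on the lower side. By value, 22 of 30 genes were lower with phenolphthalein, against 54.1% of all items and 66.8% of the 1689 items above a level of 5, where 21 of the 30 genes lie, and 8 were higher. The median difference of the 30 genes was -0.06 log2, against -0.02 over all items and -0.03 over items above a level of 5. Of the 21 genes above that level, 15 were lower by value, with a median of -0.05. Differences ran from -0.22 log2 for Cox20 to 0.14 for Surf1, and 20 genes differed by less than 0.1 log2, or 7.18%. The median was -0.03 without phenolphthalein replicate 1 and -0.09 without phenolphthalein replicate 2.

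The spread between rats was like that of other bright items. The median SD between rats of a group was 0.06 log2 for the 30 genes, 0.07 for items above a level of 5 and 0.15 for all items (n = 3 rats a group). By group, the median SD of the 30 genes was 0.04 in vehicle and 0.07 in phenolphthalein. Items above a level of 5 had 0.05 and 0.08. The phenolphthalein arrays did not all share a slide, so slide and rat cannot be told apart in their SD. For 26 of the 30 genes the 95% limma interval of the difference lay within 1.25-fold either way, against 32.1% of all items and 81.9% of the 1689 items above a level of 5. No interval among the 30 reached below a change of -26.1% (Cox20) or above 21.9% (Surf1).

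**Figure D1:**
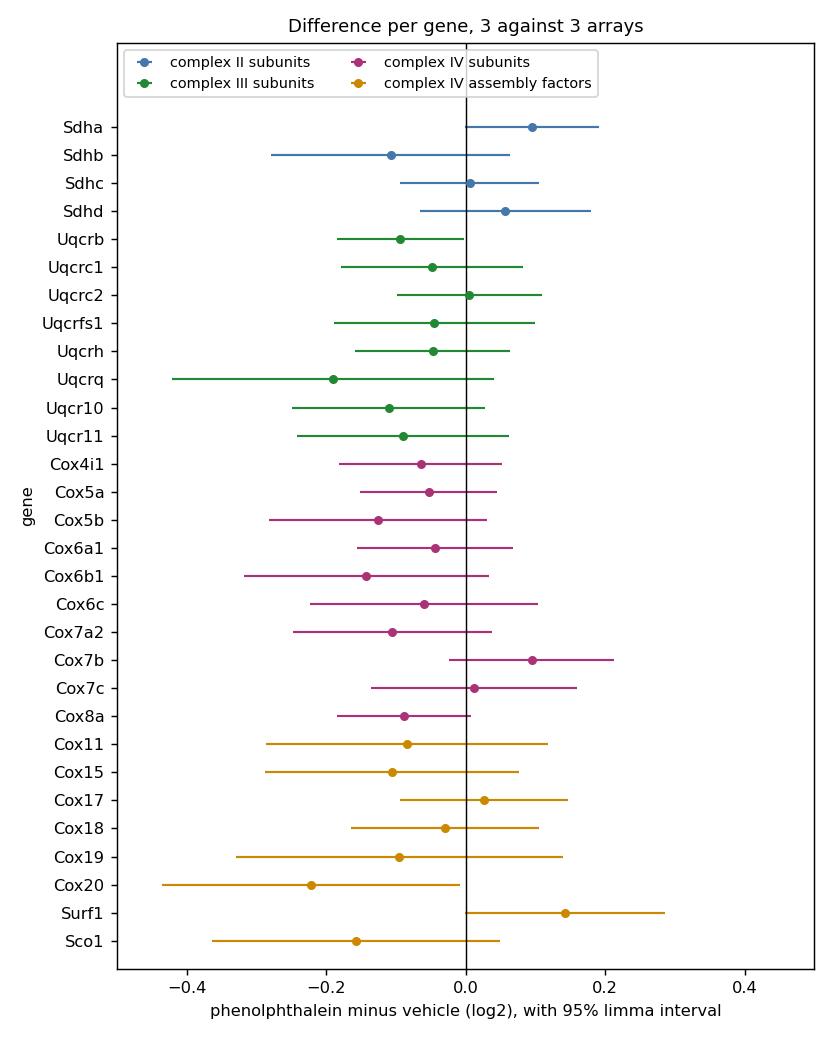
Difference between phenolphthalein and vehicle for each of the 30 measured genes (x axis, log2, point: limma estimate, bar: 95% interval, n = 3 arrays a group), coloured by role group. The points run from -0.22 for Cox20 to 0.14 for Surf1, and only the intervals of Uqcrb and Cox20 leave out 0, at an adjusted p of 0.558 and 0.557 by limma.

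Groups did not overlap for 8 of the 30 genes. Phenolphthalein lay lower in 7 of them (Uqcrb, Uqcr11, Cox6b1, Cox8a, Cox15, Cox18 and Sco1), against 9.02% of all items and 13.3% of items above a level of 5. It lay higher in 1 of them, Sdha, against 6.64% of all items. The gaps between the groups were narrow, at most 0.07 log2 (Uqcrb). These shares belong to the main fit, and none over all items is given for the settings that follow. With quantile normalization the split turned, with 3 genes lower and 4 higher, and with normexp background correction it was 8 lower and 3 higher. With 5 arrays the groups part more easily: 14 genes lay lower without phenolphthalein replicate 2 and 12 without vehicle replicate 1, and 3 lay higher without vehicle replicate 2 or phenolphthalein replicate 1, and 2 without vehicle replicate 3 or phenolphthalein replicate 2.

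The promoters, which did not enter the choice of these genes, were searched for known sequences. RefSeq windows of 250 bases before to 50 after the start (GRCr8) were found for 27 of the 33 genes. They were searched on both strands for 6 sequences. CCGGAAG, the core bound by ETS factors such as GABP (nuclear respiratory factor 2), was in 14 of 27 windows (51.9%), against 11.2% of 19005 protein-coding genes and 15.7% of the 10002 named genes tested here. A sequence of the NRF-1 type (GCGCA, any base, then GCGC) was in 4 (14.8%, against 6.09% of all and 8.58% of tested genes). AAGATGGC, of the YY1 type, was in 5 (18.5%, against 3.92% and 4.8%), and AAGGTCA, of the ERR type, in 4 (14.8%, against 3.7% and 3.24%). The GC box GGGGCGGGG was in 2 (7.41%, against 13.3% and 17.8%) and CCAAT in 6 (22.2%, against 38.4% and 38.2%). No matches of different sequences overlapped in these 27 windows. A match describes the letters and is not shown to be a bound site, and none of the 6 sequences was in all 27 windows.

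The 250 bases before the start are shown for Cox20 and Sco1, the assembly factors with the lowest differences, for Surf1, the gene with the highest, and for Sdha, the gene whose phenolphthalein arrays all lay above vehicle. Capitals mark CCGGAAG or its reverse complement CTTCCGG in the first 3 and the NRF-1 type sequence in Sdha. They lie at chr13:92599709-92599958 (plus strand), chr10:52243414-52243663 (plus), chr3:30642711-30642960 (minus) and chr1:30764303-30764552 (plus) of GRCr8, in that order.
Cox20: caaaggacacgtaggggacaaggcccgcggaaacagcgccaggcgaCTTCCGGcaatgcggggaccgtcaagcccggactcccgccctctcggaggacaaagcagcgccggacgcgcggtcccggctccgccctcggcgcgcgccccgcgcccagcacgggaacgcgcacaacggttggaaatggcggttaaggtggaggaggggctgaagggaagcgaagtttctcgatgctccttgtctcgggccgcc
Sco1: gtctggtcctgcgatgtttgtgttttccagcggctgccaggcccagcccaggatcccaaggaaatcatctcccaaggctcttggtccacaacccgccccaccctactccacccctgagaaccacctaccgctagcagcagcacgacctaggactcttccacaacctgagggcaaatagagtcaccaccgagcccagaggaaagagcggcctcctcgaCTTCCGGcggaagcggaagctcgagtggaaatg
Surf1: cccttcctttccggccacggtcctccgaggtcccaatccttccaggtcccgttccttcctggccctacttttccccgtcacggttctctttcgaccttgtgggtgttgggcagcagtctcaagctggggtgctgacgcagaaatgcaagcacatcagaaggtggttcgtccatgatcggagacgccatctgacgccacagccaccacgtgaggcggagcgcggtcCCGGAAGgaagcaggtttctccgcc
Sdha: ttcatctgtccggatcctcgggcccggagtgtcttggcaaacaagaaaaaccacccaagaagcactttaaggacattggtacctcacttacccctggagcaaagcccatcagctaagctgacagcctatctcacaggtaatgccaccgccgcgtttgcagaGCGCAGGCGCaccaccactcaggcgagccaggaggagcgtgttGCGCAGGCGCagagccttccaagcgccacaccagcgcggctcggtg

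Cox20 and Surf1, which lay on opposite sides, both carry the ETS-type match. The 14 measured genes with it had a median difference of -0.10 log2 (from -0.22 to 0.14, 11 lower by value). The 12 measured genes in the promoter table without it had a median of -0.04 (from -0.14 to 0.09, 7 lower by value). The ranges of these sets overlap, and no test was made of this split.

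The 4 subunits of complex II did not share a direction. Sdha, the flavoprotein that holds the succinate site, stood at 7.004, 7.02 and 7.08 in the vehicle replicates 1 to 3 and at 7.12, 7.14 and 7.13 in the phenolphthalein replicates. Every phenolphthalein array thus lay above every vehicle array, by 0.04 log2 at the nearest. The difference was 0.09 (SE 0.04, limma adjusted p = 0.567). Its other probe differed by -0.02 (SE 0.05), so the probes of Sdha do not share a sign.

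Sdhb, the iron-sulfur subunit next in the electron path, stood at 5.49, 5.43 and 5.47 in vehicle and at 5.20, 5.45 and 5.41 in phenolphthalein. Phenolphthalein replicate 1 was low and the other phenolphthalein arrays lay within or just below the vehicle range. The difference was -0.11 (SE 0.07, limma adjusted p = 0.700), and the other probe gave -0.06. Sdhc and Sdhd anchor the enzyme in the inner membrane and bind ubiquinone. Sdhc was at 5.31, 5.34 and 5.33 in vehicle and at 5.31, 5.34 and 5.35 in phenolphthalein, a difference of 0.01 with an interval from -0.09 to 0.11 log2. Sdhd was at 6.13, 6.22 and 6.08 in vehicle and at 6.23, 6.20 and 6.17 in phenolphthalein, a difference of 0.06 with an interval from -0.07 to 0.18. The groups overlapped for both membrane anchors.

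Of the 8 measured subunits of complex III, 7 were lower by value, with a median of -0.07 log2. Uqcrb, a small subunit near the ubiquinone site, was at 6.99, 6.99 and 7.04 in vehicle and at 6.90, 6.91 and 6.92 in phenolphthalein. The groups did not overlap and the phenolphthalein arrays lay within 0.02 of each other. The difference was -0.09 (SE 0.04, limma unadjusted p = 0.0447, adjusted p = 0.558), and all 4 of its probes were lower by value, from -0.12 to -0.03.

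Uqcrq, another small subunit, was at -0.49, -0.66 and -0.47 in vehicle and at -0.65, -0.66 and -0.87 in phenolphthalein. Phenolphthalein replicate 3 was the lowest array and vehicle replicate 2 lay among the phenolphthalein values. The difference was -0.19 (SE 0.10, limma adjusted p = 0.626). A further Uqcrq probe was not well above background on any array and was not tested.

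Of the other complex III genes, the core proteins Uqcrc1 and Uqcrc2 were at -0.05 and 0.01 (SE 0.06 and 0.04). The Rieske iron-sulfur protein Uqcrfs1 was at -0.05 (SE 0.06). Uqcrh, the hinge protein that helps cytochrome c1 meet cytochrome c, was at -0.05 (SE 0.05). Uqcr10 and Uqcr11, small accessory subunits, were at -0.11 (SE 0.06) and -0.09 (SE 0.06). For Uqcr11 phenolphthalein replicate 1 stood at 6.28, while replicates 2 and 3 at 6.49 and 6.47 lay just below the vehicle values of 6.51, 6.49 and 6.51. That lack of overlap is under 0.01 log2 wide.

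**Figure D2:**
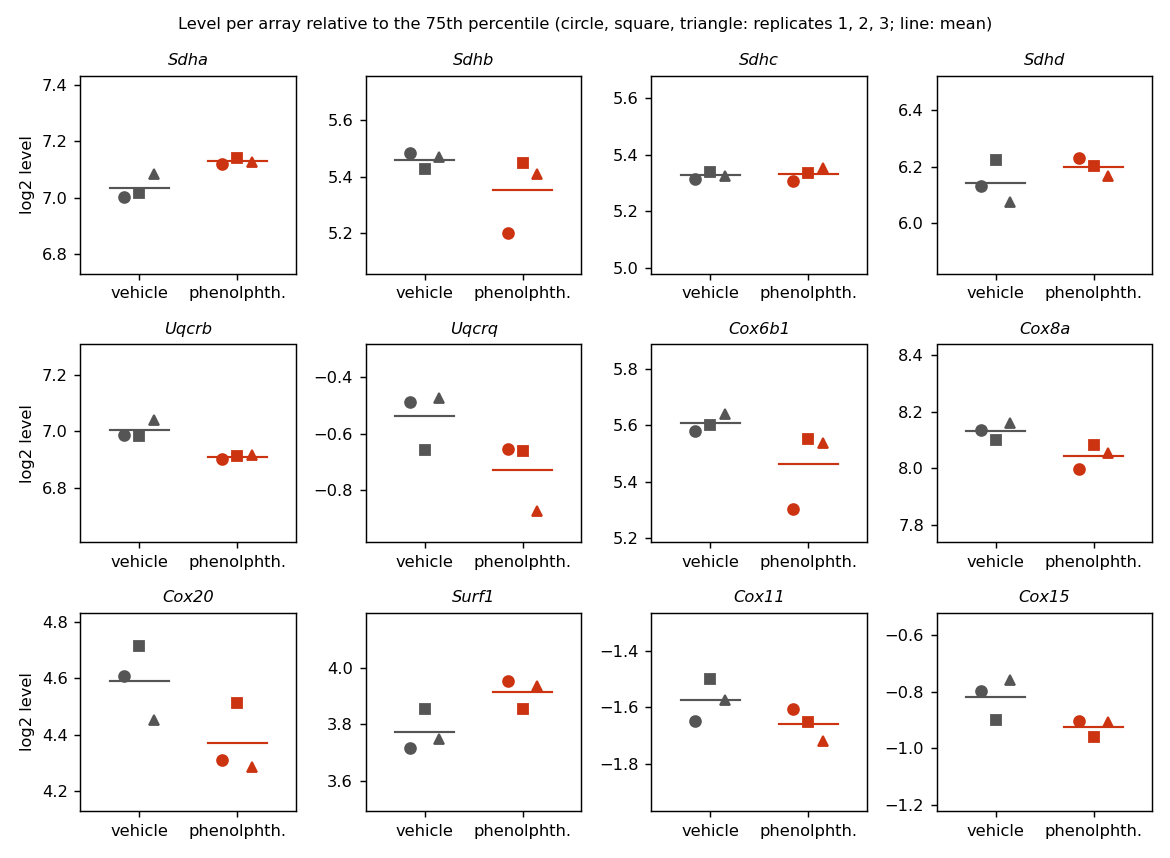
Level on each array (y axis, log2 relative to the array's 75th percentile, each panel spanning the same height in log2) for 12 genes described array by array, with vehicle in grey and phenolphthalein in red; lines are group means. Sdha lies above vehicle on all phenolphthalein arrays and Uqcrb below on all, while phenolphthalein replicate 1 lies lowest in Sdhb and farthest from vehicle in Cox6b1.

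Among the 10 nuclear subunits of complex IV, 8 were lower by value, with a median of -0.06 log2. Cox8a, a small subunit of the inner membrane, was at 8.14, 8.10 and 8.16 in vehicle and at 7.996, 8.08 and 8.05 in phenolphthalein. The groups were parted by 0.02. The difference was -0.09 (SE 0.04, limma adjusted p = 0.593). Cox6b1, which lies on the intermembrane side and joins complex IV dimers, was at 5.58, 5.60 and 5.64 in vehicle and at 5.30, 5.55 and 5.54 in phenolphthalein. All phenolphthalein arrays lay lower and replicate 1 stood farthest away. The difference was -0.14 (SE 0.07, limma adjusted p = 0.632), and its 3 probes were at -0.21, -0.10 and -0.14.

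Cox4i1, the largest nuclear subunit and the site of regulation by ATP, was at 7.72, 7.72 and 7.73 in vehicle and at 7.57, 7.73 and 7.68 in phenolphthalein. Phenolphthalein replicate 2 was the highest of the 6 arrays, so the groups overlapped, and the difference was -0.06 (SE 0.05). Cox5a and Cox5b, which face the matrix, were at -0.05 (SE 0.04) and -0.13 (SE 0.07), with both probes and all 3 probes lower by value. Cox6a1, Cox6c and Cox7a2 were at -0.04, -0.06 and -0.11. Cox7b alone stood on the higher side with a difference near 0.1: it was at 6.25, 6.26 and 6.31 in vehicle and at 6.30, 6.43 and 6.37 in phenolphthalein, a difference of 0.09 (SE 0.05, limma adjusted p = 0.634). Vehicle replicate 3 lay above phenolphthalein replicate 1 in Cox7b. Cox7c differed by 0.01 (SE 0.06). Genes of this kind have near-identical processed copies in the genome, so signal from such copies cannot be told apart from that of the gene.

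Further genes related to complex IV subunits, some of them tissue-specific forms, were also on the array. Cox6a2, known from heart and skeletal muscle, was above background on all 6 arrays. Its vehicle mean was -1.51 ± 0.02 and its phenolphthalein mean -1.72 ± 0.01 (SD, n = 3 each). The groups did not overlap and the difference was -0.21 (SE 0.08, limma unadjusted p = 0.0268, adjusted p = 0.524). Its other probes differed in strength: by array, in vehicle and then phenolphthalein, they read -3.28, -3.47, -3.27, -3.86, -3.63 and -3.82 for A_64_P003764, again without overlap, and -3.98, -4.23, -4.27, -4.14, -4.09 and -4.14 for A_44_P376112, with overlap. Cox4i2, known for its link to oxygen supply, Cox6b2, Cox7a2l and Cox8b were above background on all arrays, and Cox8c was not above background on any. No probe was matched to Cox7a1 or Cox7b2. Of the 6 tested genes in this list, which includes Ndufa4, 5 were lower by value and 0 passed the test.

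The 8 measured assembly factors of complex IV held both ends of the range, with 6 lower by value and a median of -0.09 log2. With the median over each gene's probes in place of the brightest probe, this group's median was 0.01. Cox20, a chaperone of the mitochondrially encoded subunit COX2, was at 4.61, 4.71 and 4.45 in vehicle and at 4.31, 4.51 and 4.29 in phenolphthalein. Phenolphthalein replicate 2 lay above vehicle replicate 3, so the groups overlapped. The difference was -0.22 (SE 0.09, limma unadjusted p = 0.0436, adjusted p = 0.557). A dimmer probe of Cox20 gave -0.17 (SE 0.23).

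Surf1, which acts early in building the COX1 module and is mutated in Leigh syndrome, was at 3.71, 3.85 and 3.75 in vehicle and at 3.95, 3.85 and 3.94 in phenolphthalein. Vehicle replicate 2 and phenolphthalein replicate 2 were level, so the groups overlapped. The difference was 0.14 (SE 0.06, limma adjusted p = 0.565), and the other probe gave 0.07 (SE 0.05).

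Cox11, Cox17, Cox19 and Sco1 handle copper on its way into complex IV. Cox17, the copper donor of the intermembrane space, was at 5.24, 5.26 and 5.21 in vehicle and at 5.19, 5.30 and 5.30 in phenolphthalein, a difference of 0.03 (SE 0.05). Sco1, which receives copper from Cox17, was at 0.93, 0.89 and 0.97 in vehicle and at 0.62, 0.82 and 0.89 in phenolphthalein. Phenolphthalein replicate 1 was far below the rest and replicate 3 met the vehicle range to within 0.01. The difference was -0.16 (SE 0.09, limma adjusted p = 0.644), and all 3 probes of Sco1 were lower by value. Cox19 differed by -0.10 (SE 0.10). Cox11, which supplies copper to the COX1 subunit, was at -1.65, -1.50 and -1.58 in vehicle and at -1.61, -1.65 and -1.72 in phenolphthalein, with overlap. Its 4 probes ran from -0.08 to 0.24, so Cox11 has no settled sign.

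Cox15 converts heme O to heme A. It was at -0.80, -0.90 and -0.76 in vehicle and at -0.91, -0.96 and -0.91 in phenolphthalein, a difference of -0.11 (SE 0.08, limma adjusted p = 0.720). The groups were parted by 0.0053 on this probe, while the second Cox15 probe gave 0.10 (SE 0.12). Cox18, which moves the COX2 tail across the inner membrane, differed by -0.03 (SE 0.06), and its 3 probes ran from -0.03 to 0.07. Probes of 4 of the 18 genes with several tested probes differed in sign (Sdha, Cox11, Cox15 and Cox18). All probes were lower in 13 and higher in 1, Surf1.

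The lower values were spread unevenly over the phenolphthalein rats, though not among the assembly factors. Phenolphthalein replicate 1 was the lowest of the 6 arrays for 17 of the 30 genes (56.7%), against 26.6% of all items and 41% of items above a level of 5. It was lowest for 8 of the 10 complex IV subunits. Relative to the vehicle mean, the 30 genes had a median deviation of -0.11 on phenolphthalein replicate 1, -0.02 on replicate 2 and -0.04 on replicate 3. The vehicle arrays had -0.01, -0.0016 and 0.02. The complex IV subunits stood at -0.14 on phenolphthalein replicate 1 and at -0.02 and -0.03 on the other phenolphthalein arrays. The same array read -0.07 over all items above a level of 5 and -0.02 over all items. The assembly factors stood at -0.07, -0.05 and -0.07 on phenolphthalein replicates 1 to 3. Replicate 1 was the lowest array for 2 of these 8 genes and replicate 3 for 4. With the mean of phenolphthalein replicates 2 and 3 alone, 22 of the 30 genes were still lower than the vehicle mean. The median of the 4 complex II genes was 0.03 on each phenolphthalein array, but replicate 1 was the lowest of the 6 arrays for 2 of them, Sdhb and Sdhc, and lay below both other phenolphthalein arrays for 3 of the 4.

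Phenolphthalein replicate 1 lay on a slide of its own and was scanned on a day of its own. Its proximal tubule and collecting duct markers summed to 2977 and 193, the lowest of the 6 arrays in both. Its markers of the thick ascending limb and distal tubule summed to 483, of the glomerulus to 36.7 and of the endothelium to 30.2. In none of these sets was it the lowest array. The part of these cell types in its low values was not tested. Within the phenolphthalein group, this array was below the mean of the other pair by a median of -0.08 over the 30 genes, a larger shift than the -0.06 between the groups.

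**Figure D3:**
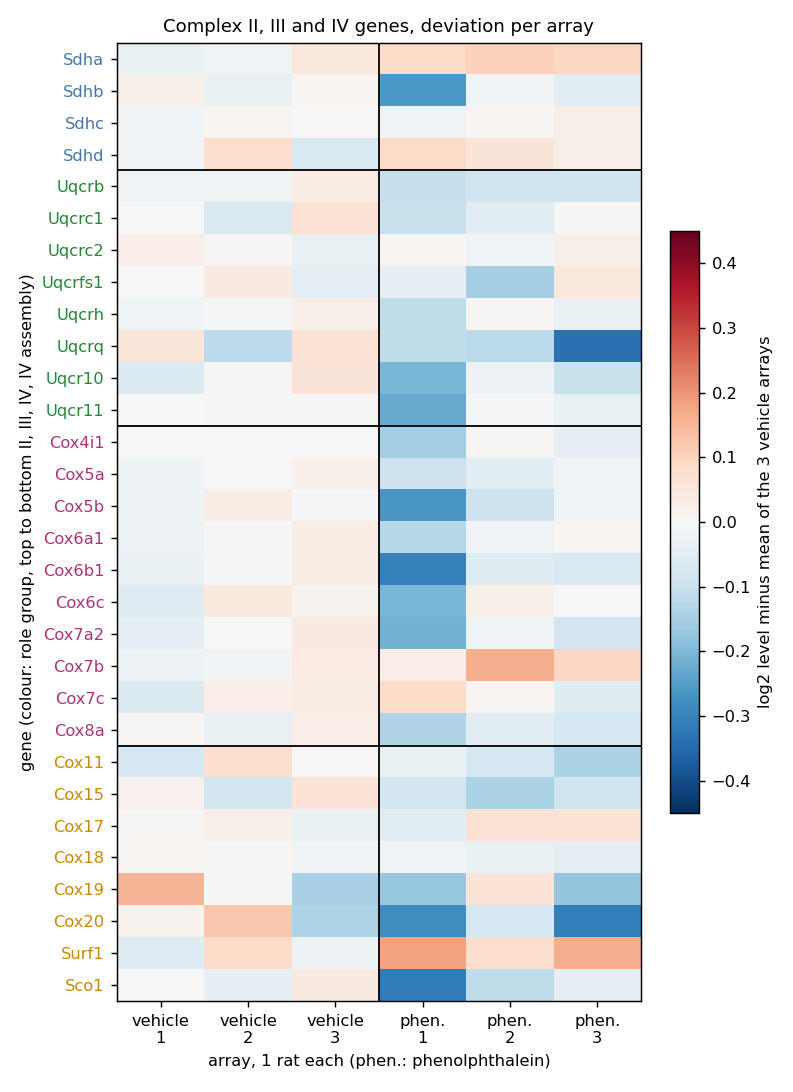
Deviation of each of the 30 genes on each array from the mean of the 3 vehicle arrays (colour, log2, blue lower and red higher), with genes in rows by role group and arrays in columns. Phenolphthalein replicate 1 was the lowest array for 17 genes, the deepest single blue is Uqcrq on phenolphthalein replicate 3, and Sdha and Surf1 are red across the phenolphthalein arrays.

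Other genes of oxidative phosphorylation were also mostly lower by value, as were items above a level of 5 (66.8% lower, median -0.03 log2). Of 31 tested complex I subunits, 26 were lower by value, with a median of -0.03 log2, and of 14 tested ATP synthase genes, 13 were lower by value, with a median of -0.04. In complex I 2 genes were lower at an unadjusted p under 0.05, Ndufb6 and Ndufs8 (both -0.13, SE 0.05, limma adjusted p = 0.537 and 0.553), in ATP synthase 0 were, and 0 passed in either list. Phenolphthalein replicate 1 was the lowest array for 17 of the 31 complex I genes and 11 of the 14 ATP synthase genes, against 41% of items above a level of 5. The median deviation on that array was -0.07 for complex I, as for items above a level of 5, and -0.11 for ATP synthase. Of 18 tested further assembly factors of complexes II to IV, 12 were lower by value, with a median of -0.02, and 0 reached an unadjusted p under 0.05. Cytochrome c (Cycs) and its heme lyase Hccs, which attaches the heme, were both higher by value, at a median of 0.06, and neither passed. Cycs stood at 7.21, 7.26 and 7.14 in vehicle and at 7.39, 7.13 and 7.13 in phenolphthalein. Only phenolphthalein replicate 1 was high in Cycs, and the other phenolphthalein arrays lay below all vehicle arrays.

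**Figure D4:**
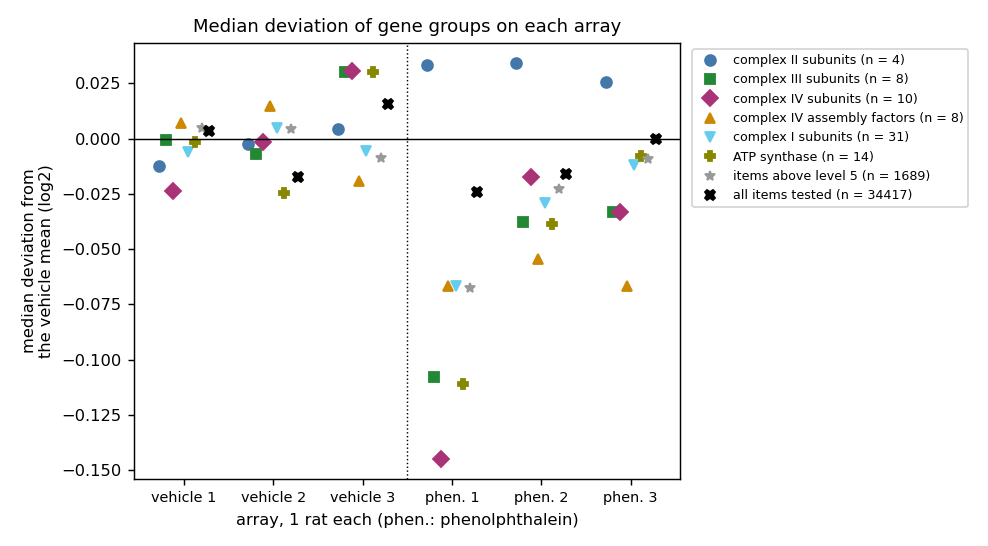
Median deviation from the vehicle mean on each array (y axis, log2) for the 4 role groups, complex I, ATP synthase, items above a level of 5 and all items tested, with the number of genes or items in the key. The complex III, complex IV and ATP synthase medians drop to -0.11, -0.14 and -0.11 on phenolphthalein replicate 1. There complex I and items above a level of 5 both stand at -0.07 and all items at -0.02. The complex II median stays at 0.03 on the phenolphthalein arrays.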

How the data were processed

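Gene expression in the renal cortex of 6 rats (3 vehicle, 3 phenolphthalein) was measured on 1-colour Agilent arrays. Per the file headers, the deposited spot intensity came from Agilent Feature Extraction 10.7.1.1, with background subtraction and detrending array by array and without scaling between arrays. The submitters' processing notes name version 10.7. The series also has a deposited table with a linear ratio per probe, and no source used here says how it was made. Its columns, with medians of 0.102 to 0.106, matched the processed intensity over the array's 75th percentile, each that of another replicate of the same group (SD of the log2 difference 0.0043 to 0.0072). Which rat of a group a replicate number names is therefore unsettled, and the numbers here are those of the scanner files. No column was left out (0).

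Each array held 61657 probes besides controls. Of these 64.8% to 72.1% were well above background, 0 were saturated, and 2 to 14 outlier spots were set to missing. The number of arrays limits the precision. Of the probes, 27460 matched 1 gene symbol of the GRCr8 RefSeq table through the accession and 34197 did not. Probe coordinates are left out because the design was annotated on rn4. The log2 intensity was set relative to the 75th percentile of each array's probes. Probes well above background on at least 3 arrays were kept, with the brightest probe per gene, which left 34417 items. The test was that of limma 3.58.1 (R 4.3.3), by lmFit and then eBayes with its trend option, and it was tested on simulated data. SEs and 95% intervals are limma's, and SDs are between rats.

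The genes described and the gene lists were chosen with earlier results of these data known. Values on every array are given for members at an unadjusted p under 0.05, the 2 of each role group with the smallest p, those whose probes differ in sign by over 0.1 log2, and all complex II genes. From each other list of pathway genes, up to 2 with p under 0.05 are named. Other members named with values, among them Cox7b, Cox4i1, Cox17, Sco1 and Uqcr11, and the counts of intervals within 1.25-fold and of items above a level of 5, were chosen after the values were seen. The alternatives were normexp (offset 50) on the median spot and background signals, since the files used hold no mean signal, other scalings, filters, probes and models, and leaving out each array. The promoter windows are RefSeq's.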

Additional observations from a re-analysis of the deposited data

How the results depend on the processing

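No gene of complexes II, III and IV passed the adjusted threshold under any of the 18 alternatives (limma, smallest adjusted p = 0.451). Of 540 differences, 528 kept their sign, but part of these could not change. The other filters, the replicate block and the fit without the intensity trend gave the same member differences as the main fit. Their median stayed at -0.0623 log2, so these settings say nothing about the sign. Which genes had an unadjusted p under 0.05 did change, and no share over all items is given for these settings. Against 0 higher and 2 lower, the counts were 2 and 0 with normexp (Cox7b and Surf1 higher), 3 and 1 with quantile normalization (Cox7b, Sdha and Surf1 higher, Cox20 lower), 1 and 2 with the 75th percentile over probes above background on all arrays, 1 and 0 with the median of all probes, and 1 and 1 without a filter. The count of lower genes was 1 with the median over probes of a gene, 0 with the slide as a random block and 0 without the intensity trend. With the replicate block it was 1, Cox20; same-numbered rats did not deviate together (correlations of -0.0063, -0.015 and 0.0248), so the numbers are not taken as pairs.

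Groups parted with phenolphthalein higher in 3 genes with normexp, 4 with quantile normalization, 2 with the median of all probes and 2 with the median over probes, against 1. With phenolphthalein lower they parted in 3 genes with quantile normalization and 3 with the median over probes, against 7. No share over all items is given for these settings. The complex II median, 0.03 log2, was 0.058 with quantile normalization and 0.022 with the median over probes. The assembly factor median, -0.09, was -0.058 with normexp and 0.012 with the median over probes.

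Leaving out 1 array gave 0 to 1 items higher and 0 to 1 lower over all items, and 0 and 0 among the genes described. At an unadjusted p under 0.05, 0 to 1 of these genes were higher and 0 to 2 lower. Groups parted higher in 1 to 3 of them and lower in 8 to 14, with no share over all items beside these counts. The medians ran from -0.09 to -0.03 for all 30 genes, 0.014 to 0.049 for complex II, -0.09 to -0.04 for complex III, -0.10 to -0.03 for complex IV and -0.088 to -0.055 for its assembly factors. Lower values numbered 21 to 24.

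The other 12 changed sign, in 7 genes, and the cause was not tested. With all arrays kept these were Cox18 at 0.0085 and Uqcrc2 at -0.033 with normexp, and Cox11 at 0.10 and Cox18 at 0.067 with the median over probes. Leaving out 1 array moved Cox6c from -0.10 to 0.012 (above 0 without phenolphthalein replicate 1), Cox7c from -0.023 to 0.046 (below 0 without vehicle replicate 1 or phenolphthalein replicate 1), Sdhc from -0.0046 to 0.018 (below 0 without vehicle replicate 1 or phenolphthalein replicate 3), Uqcrc2 from -0.012 to 0.020 (below 0 without vehicle replicate 3 or phenolphthalein replicate 3) and Uqcrfs1 from -0.093 to 0.0064 (above 0 without phenolphthalein replicate 2).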

Other observations

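Neighbouring mitochondrial genes were measured with the same fit, and 0 of them passed the adjusted threshold of limma. In coenzyme Q synthesis, which makes the carrier that complexes II and III share, 7 of 12 tested genes were lower by value, with a median of -0.04 log2. The atypical kinase Coq8a had a vehicle mean of 2.14 ± 0.10 and a phenolphthalein mean of 1.88 ± 0.14 (SD, n = 3 each). It differed by -0.26 (SE 0.09, limma adjusted p = 0.524) with overlap. Coq4 differed by -0.25 (SE 0.10, limma adjusted p = 0.534), and its groups did not overlap. Of 13 citric acid cycle genes, 7 were lower by value, with a median of -0.01, and differences ran from -0.06 to 0.09. Of 16 regulators of mitochondrial biogenesis, 7 were lower by value, with a median of 0.02. Ppargc1b, a coactivator of genes of oxidative metabolism, had the highest difference of these, 0.29 (SE 0.12, limma adjusted p = 0.547), from a vehicle mean of 0.47 ± 0.17 to a phenolphthalein mean of 0.76 ± 0.14 (SD, n = 3 each), with overlap. Of 11 genes of the outer membrane and protein import, 6 were lower by value, with a median of -0.02.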
